A study of Mus musculus with 28 samples.

Results

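The dorsal striatum of *Hdc*-KO mice was compared with that of *Hdc* heterozygous mice, using 2 KO libraries (7b and 8b) and 3 heterozygous libraries (4b, 5b and 6b) of the 28 RNA-seq libraries in the series. The libraries were taken by their tissue and genotype labels, and 13377 of the 29878 listed genes were tested, those above 1 CPM (a gene's counts per 1000000 counts of the TMM-scaled total of its library) in at least 2 of the 5 libraries. Genes with both KO libraries above, or both below, all 3 heterozygous libraries are also given on their own. The study sequenced cDNA from the dorsal striatum, ventral striatum, hypothalamus and motor cortex of WT, heterozygous and KO mice as an exploratory screen. The mice were 2 to 3 months old and untreated as far as the labels say, and per the study's methods the *Hdc*-knockout line had been backcrossed onto C57Bl/6. The heterozygous mice carry 1 knockout allele, so both groups hold the targeted allele and neither is the WT control. The labels do not state whether libraries came from separate animals or what the digit in a library name stands for. The p-values therefore rest on a spread between libraries, estimated over all 28 and not the 5 alone, which may be technical.

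*Hdc* encodes histidine decarboxylase, the enzyme that makes histamine from histidine, and histamine neurons of the posterior hypothalamus send axons to the striatum, where the receptors H1, H2 and H3 are expressed. The dorsal striatum consists mainly of GABAergic spiny projection neurons, which carry D1 dopamine receptors in the direct pathway and D2 receptors in the indirect pathway. In these neurons a rise of calcium or cyclic AMP switches on immediate early genes within minutes without new protein synthesis: transcription factors of the *Fos*, *Jun*, *Egr* and *Nr4a* families, the synaptic gene *Arc*, and feedback inhibitors such as the phosphatase *Dusp1*. Their RNA is short-lived and is widely used as a record of recent neuronal activity.

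In these libraries 62 of 13377 genes (0.463%) passed the test, 44 higher (0.329%) and 18 lower (0.135%) in KO, by edgeR's likelihood ratio test at an adjusted p under 0.05. The genes with the smallest p among the lower ones included several immediate early genes. Both KO libraries were below every heterozygous library in 17 of the 18, against 10.6% of all genes tested. The 18 were picked by a difference in these same libraries, so the separation is not added support. Of the 44 higher genes, 32 had more than 2 times as many CPM in 1 KO library as in each of the other 4 libraries. They are called led by that library, 21 by 7b and 11 by 8b. Over all 13377 genes tested, 58 were led by 7b and 72 by 8b. The rule asks for a high KO library, so a gene lower in KO cannot be led, and it does not compare the 2 directions. Without an adjustment 982 genes (7.34%) had p under 0.05, 511 higher and 471 lower. The count of calls depended on the test and on single libraries. edgeR's quasi-likelihood test called 8 genes (4 higher, 4 lower) and DESeq2 called 19 (13 higher, 6 lower). Without heterozygous library 4b the likelihood ratio test called 13 genes (10 higher, 3 lower), and without 5b it called 15 (8 higher, 7 lower). Scaling by library size alone gave 65 higher and 9 lower calls (87.8% higher, against 71% with TMM).

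The libraries held 4170409 to 5032136 counts on genes in the heterozygous group and 3912708 to 4510676 in the KO group. Genes of spiny neurons marked all 5 libraries as striatal, with 20 shared spiny neuron genes summing to between 15160 and 17360 CPM. *Drd1* was between 184 and 264 CPM and *Drd2* between 502 and 630 CPM. Other parts of the brain were present unevenly. Several excitatory cortical neuron genes were high in 7b, choroid plexus genes were high in 8b, and ependymal and neuroblast genes were high in 4b. Their values are given beside the genes they moved with. Library 4b also had the largest share of uniquely aligned reads outside annotated genes (29.85%, against 18.58% to 26.29% in the other 4). In bulk tissue, fewer cells of a type and less RNA per cell cannot be told apart.

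*Hdc* itself (ENSMUSG00000027360) was counted in every KO and heterozygous library. It had 33, 17 and 21 counts in 4b, 5b and 6b and 40 and 31 in 7b and 8b, while the WT dorsal striatum libraries had 3 and 0. This is 6.69, 4.14 and 5.70 CPM in heterozygous and 9.16 and 8.14 CPM in KO libraries, with no overlap between the groups. The log2 fold change of KO over heterozygous was 0.64 (standard error 0.28) and did not pass the test (edgeR adjusted p = 0.541). The deposited counts are per gene and do not show which part of *Hdc* the reads came from, so they neither report on the enzyme nor check the genotype labels. Of the 9 tested genes for histamine synthesis, breakdown, transport and reception, none passed the test. An unadjusted p under 0.05 was found for 3 of the 9, against 7.34% of all genes tested. The median log2 fold change of the 9 genes was 0.08, against -0.004 over all genes tested. *Hrh2*, the Gs-coupled H2 receptor, was at 2.64, 2.19 and 2.71 CPM in heterozygous and 4.58 and 4.46 CPM in KO libraries, both KO libraries above the range (edgeR adjusted p = 0.541). *Hrh3*, the Gi-coupled H3 receptor, was at 159, 138 and 138 CPM in heterozygous and 162 and 117 CPM in KO libraries, and the groups overlapped.

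The promoters of 3 of the immediate early genes with the largest decreases are shown because this gene class responds through known elements just upstream of the start site. Each line is the 250 bases before a RefSeq start of the gene on GRCm38.p6, at chr12:85473640-85473889 (plus strand) for *Fos*, chr15:101266596-101266845 (plus strand) for *Nr4a1* and chr10:67537316-67537565 (plus strand) for *Egr2*. *Egr2* has 5 starts in the RefSeq promoter table, and the window shown is the first that overlaps no annotated exon. Capitals mark the half-site TGACG of the cyclic AMP response element on either strand in *Fos* and *Nr4a1*, and a CArG box, the element bound by serum response factor, in *Egr2*.
Fos: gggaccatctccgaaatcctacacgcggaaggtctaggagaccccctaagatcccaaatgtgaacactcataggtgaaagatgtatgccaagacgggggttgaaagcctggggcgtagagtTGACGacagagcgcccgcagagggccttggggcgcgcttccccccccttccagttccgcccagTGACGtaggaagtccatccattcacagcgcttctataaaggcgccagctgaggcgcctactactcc
Nr4a1: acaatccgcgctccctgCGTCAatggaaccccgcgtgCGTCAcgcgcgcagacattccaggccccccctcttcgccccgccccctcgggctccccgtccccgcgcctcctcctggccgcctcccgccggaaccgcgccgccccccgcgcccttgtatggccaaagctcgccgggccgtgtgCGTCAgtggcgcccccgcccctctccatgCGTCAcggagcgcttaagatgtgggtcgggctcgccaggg
Egr2: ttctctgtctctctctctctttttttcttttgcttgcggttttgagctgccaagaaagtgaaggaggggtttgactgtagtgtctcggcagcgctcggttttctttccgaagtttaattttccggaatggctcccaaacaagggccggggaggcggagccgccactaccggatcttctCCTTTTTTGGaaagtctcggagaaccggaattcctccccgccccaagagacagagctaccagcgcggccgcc

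The half-site occurred 2 times in the *Fos* window and 4 times in that of *Nr4a1*. Both strands were searched for the half-site TGACG, for the full element TGACGTCA, which contains the half-site, and for the CArG box. Of the 18 genes lower in KO, 14 were in the RefSeq promoter table, and 8 of these held a half-site, 1 the full element and 2 a CArG box. Over the 10330 tested genes in the table, 26.8% held a half-site, 2.77% the full element and 1.09% a CArG box, and over all 27018 promoters of that length the shares were 17.7%, 1.59% and 1.41%. A match describes the letters of the window and not a bound site.

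*Arc*, whose product acts at the synapse in the removal of AMPA receptors, had the smallest p of all genes tested. It was at 150.9, 176.2 and 118.8 CPM in heterozygous libraries and at 51.5 and 43.3 CPM in KO libraries. All 3 heterozygous libraries lay above both KO libraries, and the WT libraries, at 66.8 and 140.9 CPM, lay between the KO libraries and the middle heterozygous library. The heterozygous mean was 3.13 times the KO mean, and the log2 fold change, -1.65 with a standard error of 0.26 (edgeR adjusted p = 2.94e-05), passed the test in each of the 17 alternative analyses.

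*Egr2*, a zinc-finger transcription factor, had the largest decrease of the list. It was at 41.6, 33.4 and 13.0 CPM in heterozygous and 4.12 and 3.94 CPM in KO libraries. The KO libraries were close to each other while the heterozygous libraries spread widely, with 6b the lowest. The log2 fold change was -2.86 (standard error 0.54, edgeR adjusted p = 0.00110).

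*Nr4a1*, an orphan nuclear receptor induced by dopamine-receptor blockade and by activity, was at 258, 234 and 66.2 CPM in heterozygous and 44.0 and 26.3 CPM in KO libraries. Library 6b was again far below 4b and 5b, yet above both KO libraries. The log2 fold change was -2.40 (standard error 0.47, edgeR adjusted p = 0.00355). *Fos*, a subunit of the AP-1 transcription factor, was at 15.2, 10.5 and 9.77 CPM in heterozygous and 1.60 and 2.89 CPM in KO libraries. Here the 3 heterozygous libraries were closer together, and the mean was 5.26 times that of KO (log2 fold change -2.40, standard error 0.54, edgeR adjusted p = 0.00556).

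The other 3 list members that fell were *Fosl2*, another AP-1 subunit, *Dusp1*, which dephosphorylates MAP kinases, and *Junb*, a Jun-family partner of Fos. *Fosl2* was at 53.5, 44.4 and 16.6 CPM in heterozygous and 14.2 and 8.40 CPM in KO libraries (log2 fold change -1.75, standard error 0.41). *Dusp1* was at 33.1, 20.7 and 13.6 CPM in heterozygous and 7.79 and 7.88 CPM in KO libraries (log2 fold change -1.53, standard error 0.37). *Junb* was at 18.5, 22.2 and 16.6 CPM in heterozygous and 10.3 and 5.51 CPM in KO libraries (log2 fold change -1.25, standard error 0.33). In none of the 3 did the groups overlap, and the edgeR adjusted p-values were 0.0164, 0.0164 and 0.0366. The calls of *Fos*, *Fosl2*, *Dusp1* and *Junb* were lost in the quasi-likelihood test (edgeR adjusted p between 0.0816 and 0.0979).

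**Figure D1:**
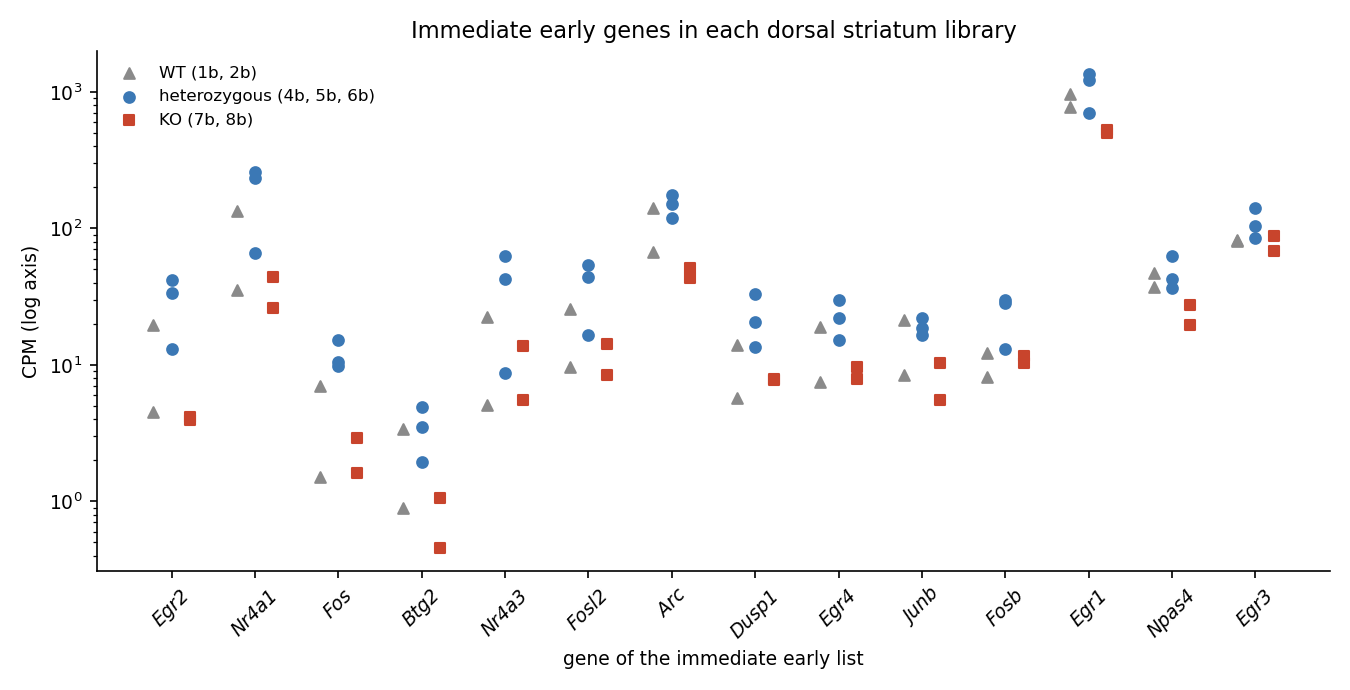
CPM of the 14 tested immediate early genes (log axis, genes ordered by the log2 fold change of KO over heterozygous) in each WT (triangles), heterozygous (circles) and KO (squares) library of the dorsal striatum. KO points lie below all 3 heterozygous points in 12 of the 14 genes, *Nr4a3* and *Egr3* being the exceptions, while WT points spread widely, from below both KO libraries (*Dusp1*, *Fos* and *Egr4* in 1b) to inside the heterozygous range (*Junb* in 2b).

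Over the whole list of immediate early genes, 14 of 15 were tested (*Ier2* had too few counts), 7 fell, against 0.135% of all genes tested, none rose, and all 14 had a negative log2 fold change. The list leaves out *Nr4a2*, of the same family as *Nr4a1* and *Nr4a3*, which was placed in the cortical excitatory neuron list. *Nr4a2* was called higher in KO (log2 fold change 4.68, edgeR adjusted p = 1.10e-04), through 7b. In 12 of the 14 both KO libraries were below the heterozygous range, against 10.6% of all genes tested, and the median log2 fold change was -1.59 against -0.004. The members that did not pass the test included *Egr1*, at 1228, 1341 and 702 CPM in heterozygous and 529 and 499 CPM in KO libraries, and *Npas4*, a neuron-restricted activity gene, at 42.2, 36.3 and 62.7 against 19.7 and 27.6 CPM. *Fosb*, *Egr4* and *Btg2* also had both KO libraries below the range, with edgeR adjusted p-values of 0.113, 0.0847 and 0.105. *Nr4a3* was at 62.5, 42.4 and 8.68 against 13.7 and 5.51 CPM, with 6b inside the KO range. *Egr3* had the smallest difference, 141, 104 and 84.4 against 88.2 and 68.3 CPM. As a mean log2 CPM over the 14 genes, the heterozygous libraries were at 5.74, 5.50 and 4.77 and the KO libraries at 3.95 and 3.74. The WT libraries were at 3.86, beside the KO libraries, and at 5.02, within the heterozygous range. The median log2 fold change of the list was -0.79 for KO over WT and 0.92 for heterozygous over WT, comparisons that each share libraries with the present one. Leaving out single libraries kept the list median between -1.78 and -1.38.

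The other 11 genes that fell were outside the list. *Apold1*, an endothelial early response gene, was at 7.50, 6.34 and 4.88 CPM in heterozygous and 1.83 and 1.31 CPM in KO libraries (log2 fold change -1.98, standard error 0.44, edgeR adjusted p = 4.18e-04). *Rgs2*, which shortens signalling through G proteins, was at 147, 167 and 109 against 77.9 and 74.6 CPM (log2 fold change -0.89, standard error 0.21, edgeR adjusted p = 0.0134). *Hbegf*, a ligand of the EGF receptor, was at 52.1, 53.1 and 38.5 against 32.1 and 26.8 CPM (log2 fold change -0.70, standard error 0.17, edgeR adjusted p = 0.0134). In these 3 genes the groups did not overlap, and the KO libraries lay close together.

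Several of the remaining lower genes encode signalling or transcription proteins. *Egfr*, the receptor for *Hbegf*, was at 38.9, 27.5 and 38.5 against 17.4 and 27.3 CPM, so that 8b lay just below 5b (log2 fold change -0.66, edgeR adjusted p = 0.0476). *Sik1*, a kinase of the cyclic AMP pathway, was at 28.0, 28.5 and 23.9 against 13.5 and 13.9 CPM (log2 fold change -0.97, edgeR adjusted p = 0.0453). *Gpr3*, a constitutively active Gs-coupled receptor, was at 7.71, 12.9 and 5.15 against 2.75 and 3.15 CPM (log2 fold change -1.54, edgeR adjusted p = 0.0173). The transcriptional repressor *Bcl6*, the ADP-ribosyltransferase *Tiparp*, the potassium channel gene *Kcna5* and *Xkr6* also had both KO libraries below the range, with log2 fold changes of -1.03, -1.50, -1.44 and -0.88. *Rnd3*, an atypical small GTPase, was the exception: 6b, at 8.14 CPM, lay below 7b, at 8.93 CPM, although the gene passed the test (log2 fold change -1.19, edgeR adjusted p = 0.0387). None of the 18 lower genes was changed in sign by any of the 17 alternative analyses, which reuse the same libraries. Calls held less well: 14 of the 18 were lost in the quasi-likelihood test and 12 in DESeq2.

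**Figure D2:**
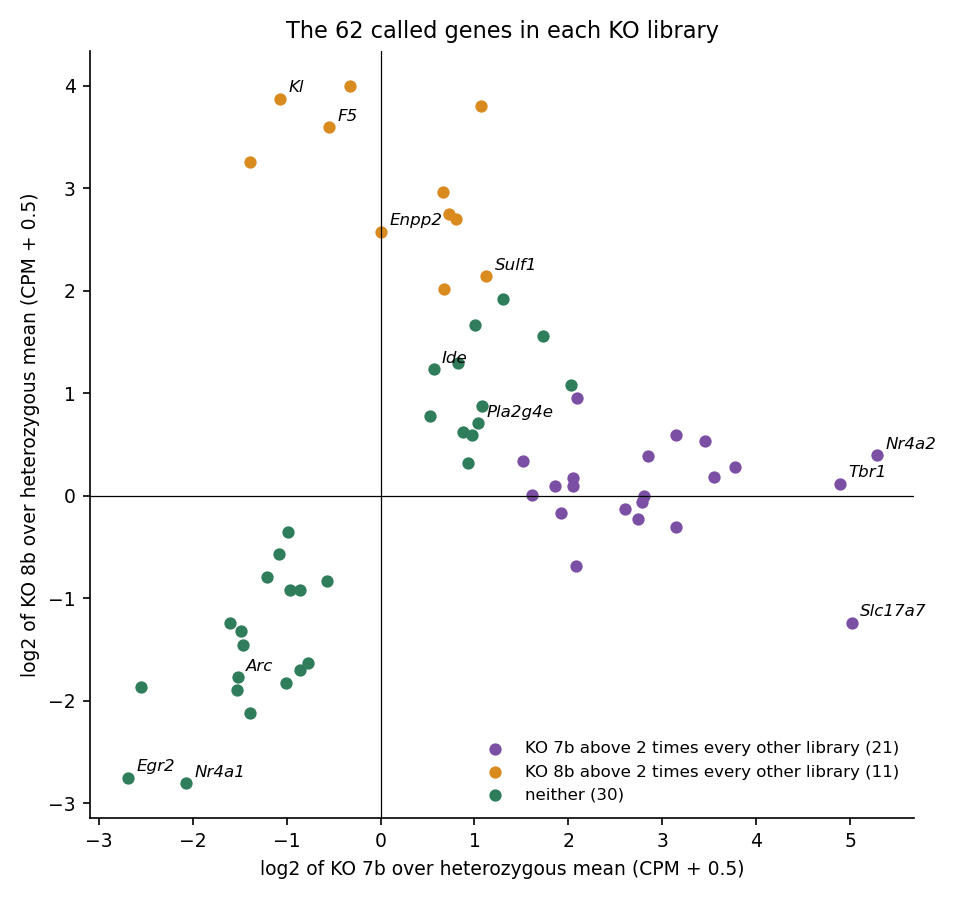
Log2 ratio of each KO library over the mean of the 3 heterozygous libraries, for the 62 genes that passed the test, with 0.5 added to CPM and 7b on the horizontal and 8b on the vertical axis. The 18 lower genes sit in the lower left, low in both KO libraries, whereas 21 higher genes spread along the 7b axis, 11 spread along the 8b axis, and 12 are high in both.

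Of the 44 genes higher in KO, 12 were not led by 1 library. In all 12 both KO libraries were above the heterozygous range, against 10.3% of all genes tested. These genes too were picked by a difference in the same libraries, so this is not added support. *Pla2g4e*, a calcium-dependent N-acyltransferase of the phospholipase A2 family, was at 11.6, 16.3 and 16.3 CPM in heterozygous and 30.7 and 24.4 CPM in KO libraries (log2 fold change 0.92, standard error 0.20, edgeR adjusted p = 0.00385). The WT libraries were at 2.70 and 2.94 CPM, far below both groups. The gene lies at chr2:120166412-120245335 (minus strand) on GRCm38, on the chromosome that carries *Hdc*.

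Within 10 Mb of *Hdc*, 184 genes were tested and *Pla2g4e* was the 1 that passed, while 0.463% of all genes tested passed. Both KO libraries were above the heterozygous range in 22 of the 184 and below it in 27, against 10.3% and 10.6% of all genes tested, and the median log2 fold change was 0.003. *Chp1*, named after its values were seen because it was the next gene of this interval by p, was at 29.8, 40.0 and 37.7 against 54.1 and 44.4 CPM (edgeR adjusted p = 0.0989).

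*Ide*, the insulin-degrading enzyme, was at 31.0, 30.5 and 32.8 CPM in heterozygous and 46.7 and 74.8 CPM in KO libraries. The 3 heterozygous libraries were nearly equal and 8b was well above 7b (log2 fold change 0.95, standard error 0.22, edgeR adjusted p = 0.00713). *Ace*, the angiotensin-converting enzyme, was at 31.2, 39.0 and 45.6 against 69.0 and 95.6 CPM (log2 fold change 1.09, standard error 0.25, edgeR adjusted p = 0.00575). The WT libraries, at 89.8 and 49.7 CPM, overlapped the KO libraries.

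**Figure D3:**
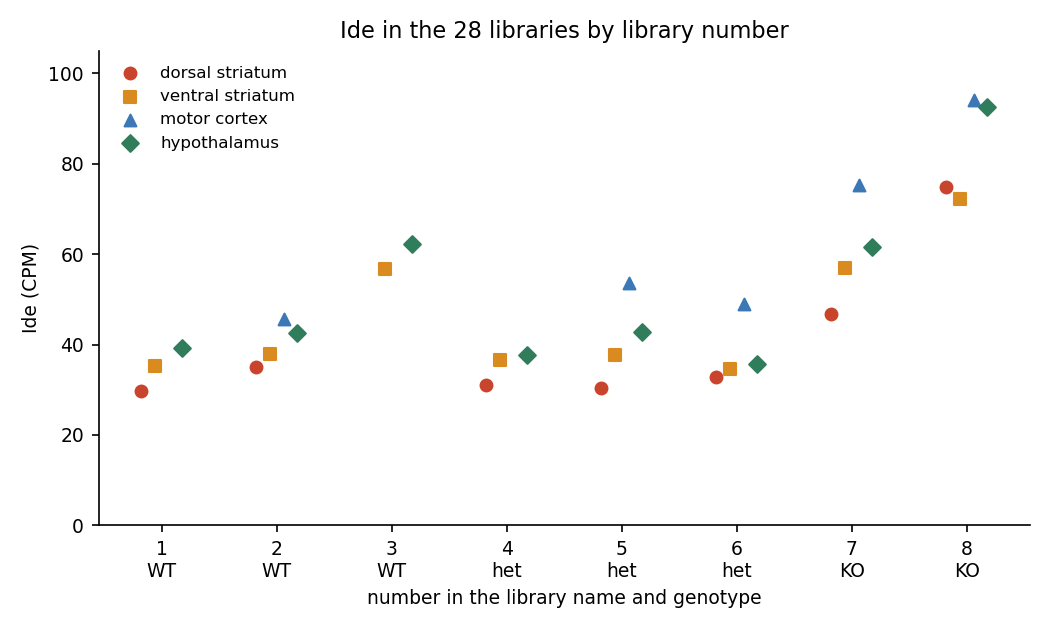
*Ide* in CPM (axis from 0) in all 28 libraries, by the number in the library name with its genotype, with 1 marker type for each region. KO numbers 7 and 8 lie at 46.7 to 94.1 CPM and heterozygous numbers 4 to 6 at 30.5 to 53.6 CPM, and WT number 3, which has no dorsal striatum library, lies at 56.6 and 62.2 CPM.

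*Galnt17*, of the family that starts mucin-type O-glycans, was at 24.7, 28.0 and 32.8 against 60.7 and 52.8 CPM (log2 fold change 1.00, standard error 0.23). *Ppm1e*, a phosphatase of the PP2C family, was at 17.4, 19.3 and 22.5 against 36.7 and 30.7 CPM (log2 fold change 0.78, standard error 0.18). *Gabra3*, the alpha-3 subunit of the GABA-A receptor, was at 16.2, 15.4 and 17.4 against 31.6 and 20.5 CPM (log2 fold change 0.69, standard error 0.17). Their edgeR adjusted p-values were 0.00713, 0.00824 and 0.0224, and in each gene the lower KO library was farther from the heterozygous range than that range is wide. *Cpne9*, a calcium-binding copine, was at 3.65, 4.63 and 5.43 against 20.2 and 10.2 CPM, and *Rasl11b*, a small GTPase, at 19.1, 21.7 and 37.2 against 51.5 and 39.4 CPM. *Hjurp*, a chaperone of the centromeric histone, was at 20.9, 17.3 and 18.7 against 27.5 and 32.8 CPM. *Gipc2*, *Vamp8* and *Tufm* were at 8 CPM or less in every library; *Tufm* had at most 3 counts in a heterozygous library, and no fold is given for it.

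The 21 genes led by 7b included genes of excitatory cortical neurons. *Slc17a7*, the vesicular glutamate transporter of cortical neurons, was at 5.07, 3.17 and 6.78 CPM in heterozygous libraries, at 178 CPM in 7b and at 1.84 CPM in 8b. It passed the test (log2 fold change 4.16, standard error 0.89, edgeR adjusted p = 0.00556), but the 2 KO libraries lay on opposite sides of the heterozygous range. The transcription factor *Tbr1* was at 70.3 CPM in 7b and between 1.22 and 2.44 CPM in the other 4 libraries. *Nr4a2*, a nuclear receptor that also marks deep cortical neurons, was at 76.5 CPM in 7b and between 0.543 and 2.43 CPM in the other 4.

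Of the 12 tested genes of the cortical excitatory neuron list, 5 rose, against 0.329% of all genes tested, and the median log2 fold change was 1.79 against -0.004. The log2 fold change was positive in 8 of the 12 and negative in 4. In 7b, *Rorb* (82.7 CPM) and *Lamp5* (102 CPM) lay within the heterozygous range and *Rasgrf2* (24.5 CPM) below it. The summed level of the list was 458 to 492 CPM in heterozygous libraries, 875 CPM in 7b and 393 CPM in 8b, so 8b was below the heterozygous range. Without 7b, *Slc17a7* had a log2 fold change of -1.43 and the list a median of -0.09. Other genes with the same lead were *Cck*, *Nptx1*, *Neurod6*, *C1ql3*, *Cplx3*, *Rxfp1*, *Ccn2*, *Nrn1*, *Vxn*, *Gng2*, *Ncald*, *Pter*, *Kcnj6*, *Cbln2* and *Medag*, at 5.50 to 143 CPM in 7b. *Car10* and *Slitrk1* shared the lead but were also higher in 8b: *Car10* was at 8.72, 7.80 and 10.3 CPM in heterozygous and 39.6 and 17.9 CPM in KO libraries, and *Slitrk1*, a synaptic adhesion gene, was at 10.5, 12.2 and 11.1 against 33.2 and 14.4 CPM. The WT library 2b had raised cortical genes as well (*Slc17a7* 56.2 CPM, *Tbr1* 19.7 CPM), and 1b did not (3.89 and 1.80 CPM).

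The 11 genes led by 8b included genes of the choroid plexus, the epithelium that secretes cerebrospinal fluid. *Kl*, which encodes klotho, was at 1.62, 3.17 and 4.07 CPM in heterozygous libraries, at 1.15 CPM in 7b and at 50.2 CPM in 8b (log2 fold change 3.12, standard error 0.67, edgeR adjusted p = 0.00417). *Enpp2*, which encodes autotaxin and is expressed in choroid plexus and in oligodendrocytes, was at 165, 148 and 184 against 167 and 991 CPM. *Prlr*, *F5*, *Tmem72* and *Abca4* also passed the test, and in 7b the first 3 of these were at 0.687 to 2.29 CPM, while *Abca4*, at 3.21 CPM, was above the heterozygous range.

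Of the 16 choroid plexus genes, 8 passed the filter on low values, all with a positive log2 fold change. Of these 8, 5 rose, against 0.329% of all genes tested, and the median was 2.98 against -0.004. To pass, a gene needed only 1 library above 1 CPM besides 8b, so these 8 are not a count over the list. The other 8, such as *Folr1* and *Otx2*, had 16 to 69 counts in 8b and at most 4 in each of the other 4 libraries. *Ttr*, the transthyretin gene and the most abundant of the list, had 0.406, 4.87 and 54.0 CPM in heterozygous libraries, 1.15 CPM in 7b and 2708 CPM in 8b, and did not pass the test (edgeR adjusted p = 0.0779). Summed over the 8 genes, the level was 17.2 to 76.8 CPM in heterozygous libraries, 13.5 CPM in 7b and 2932 CPM in 8b. Of the 16 genes, 0 were without counts in 8b, 4 in 7b, and 1, 6 and 1 in 4b, 5b and 6b. Without 8b the list median was -0.96. *Sulf1*, a heparan sulfate endosulfatase, was led by 8b but was high in both KO libraries: 7.91, 5.85 and 8.41 CPM in heterozygous and 16.7 and 34.4 CPM in KO libraries (log2 fold change 1.78, standard error 0.32, edgeR adjusted p = 9.04e-05). The part of choroid plexus or cortical tissue in the differences above was not tested. With the mean level of both lists in the fit, an alternative added after the data had been seen, 12 genes were called, 4 higher and 8 lower. Of the 18 lower genes, 4 kept their call and 14 lost it. Of the 44 higher genes, 3 kept it, 37 lost it and 4 changed sign. *Arc* (log2 fold change -2.21), *Egr2* (-3.64), *Nr4a1* (-3.16) and *Fos* (-3.74) were among the genes called.

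**Figure D4:**
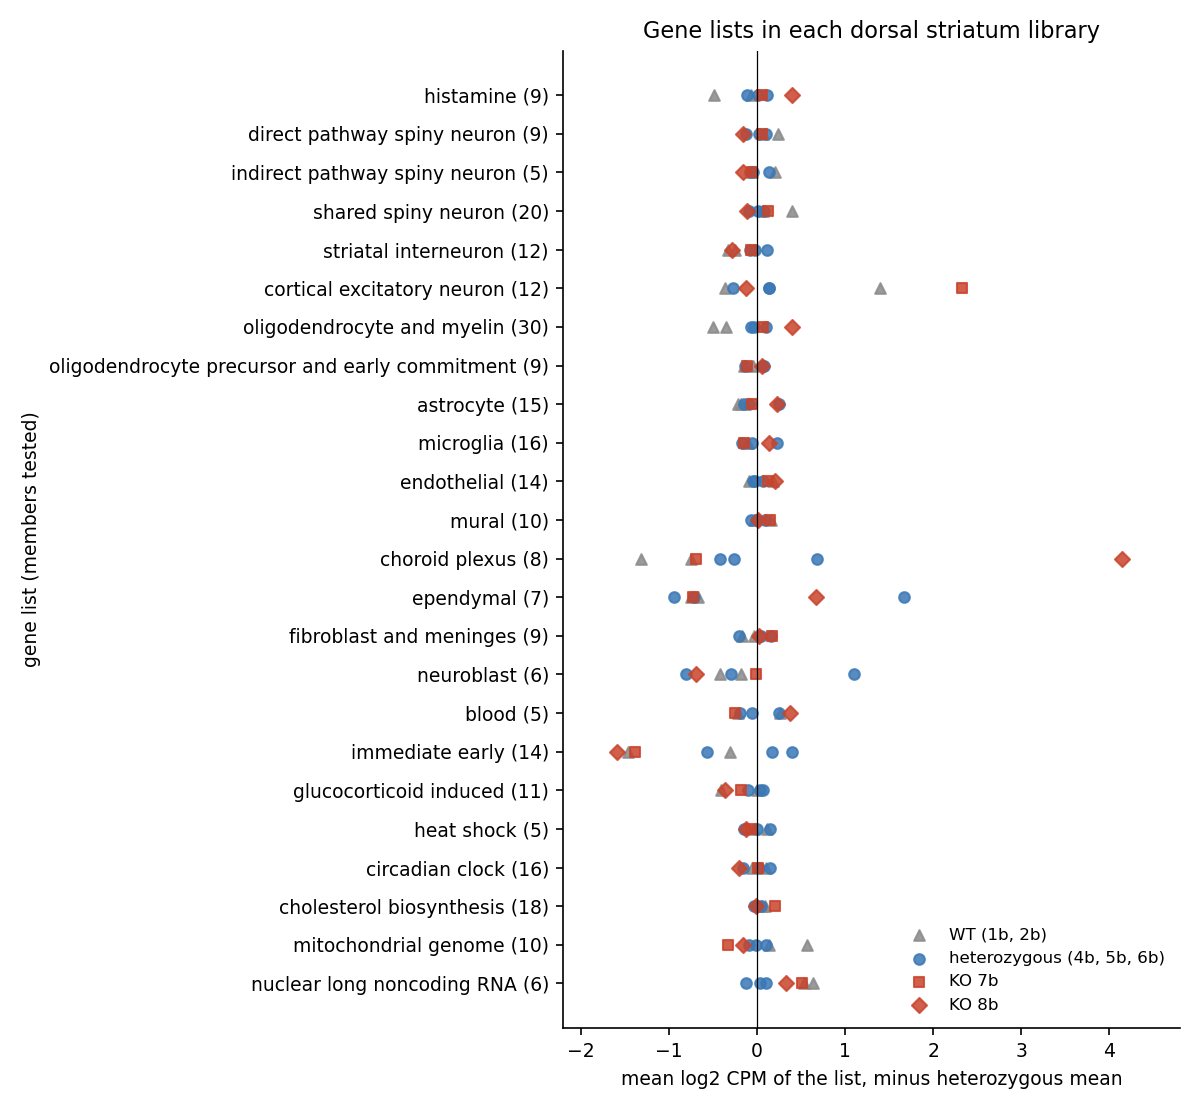
Mean log2 CPM of each gene list in each library of the dorsal striatum, minus the mean of the 3 heterozygous libraries, with the number of members tested in brackets. KO 7b stands out in the cortical list and KO 8b in the choroid plexus list, 4b is the highest heterozygous point in the ependymal and neuroblast lists, and the immediate early list is low in both KO libraries and in 1 WT library.

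Counted without a test, 2801 of 13377 genes (20.9%) had both KO libraries outside the heterozygous range on the same side, 1380 above (10.3%) and 1421 below (10.6%). With 2 libraries against 3 there are 10 ways to assign the labels. Such a separation has p = 0.2 in an exact permutation test on a single gene. The share of 20.9% is close to that, so the count alone shows no difference between the groups. With library sizes alone the same count was 2408 above and 619 below, so the split between directions (49.3% above with TMM, 79.6% without) rests on the scaling. In a further 1261 genes the 2 KO libraries lay on opposite sides of the range, 715 with 7b above and 546 with 8b above. Of the 62 genes that passed the test, 40 were outside the range, 23 of the 44 higher and 17 of the 18 lower.

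Among genes with a mean of at least 10 CPM, the 8 with the largest log2 fold changes above the range were *Sulf1*, *Car10*, *Gpr139*, *Ace*, *Slitrk1*, *Galnt17*, *Sel1l3* and *Ide*. *Gpr139*, an orphan receptor of the striatum and habenula, was at 3.45, 5.12 and 10.04 CPM in heterozygous and 21.1 and 15.2 CPM in KO libraries (log2 fold change 1.57, edgeR adjusted p = 0.0593), and its WT libraries, at 29.9 and 7.001 CPM, spanned both groups. *Sel1l3* was at 7.10, 7.31 and 8.95 against 21.1 and 9.19 CPM, so 8b was barely above 6b (edgeR adjusted p = 0.171). Below the range the 8 were *Egr2*, *Nr4a1*, *Fosl2*, *Arc*, *Dusp1*, *Tiparp*, *Egr4* and *Syt10*. *Syt10*, a synaptotagmin, was at 57.0, 41.2 and 39.1 CPM in heterozygous and 12.1 and 25.7 CPM in KO libraries (log2 fold change -1.28, edgeR adjusted p = 0.127), and the WT libraries were at 4.49 and 36.1 CPM.

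Genes of oligodendrocytes and myelin had small positive differences, and none passed the test. All 30 were tested, 3 had an unadjusted p under 0.05, against 7.34% of all genes tested, and 27 had a positive log2 fold change. Both KO libraries were above the range in 6 of the 30, against 10.3% of all genes, and below it in none, and the median was 0.20 against -0.004. *Mbp*, myelin basic protein, was at 1733, 1630 and 1671 CPM in heterozygous and 1676 and 2119 CPM in KO libraries, with 7b inside the heterozygous range. *Trf*, transferrin, had the smallest p of the list, with 21.5, 26.6 and 27.7 against 30.2 and 43.6 CPM (log2 fold change 0.55, standard error 0.18, edgeR adjusted p = 0.193). In all 30 genes 8b was the higher KO library, and without 8b the median was 0.03. The WT libraries had lower mean levels than both groups (5.38 and 5.24 log2 CPM, against 5.67 to 5.84 in heterozygous and 5.80 and 6.13 in KO libraries). Of the 9 tested genes of oligodendrocyte precursors and early commitment, none passed and the median was -0.09. The study named this cell type by comparing the same KO libraries with WT, so the list is not independent evidence of its direction. It followed that result with qPCR, immunoblots, immunostaining and brain imaging of KO and WT mice.

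Genes of the neurons that define the tissue did not pass the test. This covers 20 shared, 9 direct pathway and 5 indirect pathway spiny neuron genes, with medians of -0.02, -0.07 and -0.11. Among them 2 (*Pdyn* and *Eya1*) had an unadjusted p under 0.05, against 7.34% of all genes tested. *Pdyn*, the dynorphin precursor of the direct pathway, had the largest difference, 94.7, 49.0 and 37.7 CPM in heterozygous and 30.2 and 31.8 CPM in KO libraries (log2 fold change -0.97, edgeR adjusted p = 0.341). *Penk*, the enkephalin precursor of the indirect pathway, was at 1745, 2045 and 1849 against 1523 and 1502 CPM, and both KO libraries were below the range (edgeR adjusted p = 0.889). None of 12 tested interneuron genes passed, with a median of -0.17 and 4 genes below the range, against 10.6% of all genes tested, among them *Kit* and *Lhx6*.

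The lists without a call were 21 in all, with 242 members tested, of which 19 (7.85%) had an unadjusted p under 0.05, close to the 7.34% of all genes tested, and none was called by edgeR's quasi-likelihood test or by DESeq2. Medians were as follows for astrocytes (0.06), microglia (0.02), endothelial cells (0.19), mural cells (0.09), fibroblasts and meninges (0.14) and blood (-0.06). The ependymal (-0.27) and neuroblast (-0.71) lists had 4b as the highest library, with summed ependymal levels of 51.3 CPM in 4b, 4.87 and 6.78 CPM in 5b and 6b and 6.41 and 21.5 CPM in KO. Heat shock genes (median -0.08), clock genes (-0.06) and cholesterol synthesis genes (0.16, with 15 of 18 positive) also had no member past the test. Of 11 glucocorticoid-induced genes none passed, 5 had both KO libraries below the range, against 10.6% of all genes tested, and the median was -0.20. *Sgk1*, a kinase of that list, was at 58.0, 99.7 and 56.2 against 42.8 and 52.0 CPM (edgeR adjusted p = 0.748). Transcripts of the mitochondrial genome had a median of -0.26 with 6 of 10 below the range (10.6% of all genes tested were), and 6 nuclear long noncoding RNAs were all positive with a median of 0.38. *Neat1*, which builds paraspeckles, was at 37.3, 26.1 and 25.5 against 47.2 and 52.0 CPM (log2 fold change 0.73, edgeR adjusted p = 0.170).

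The KO-over-heterozygous contrast of the dorsal striatum was set against the mean of the same contrast in the 3 other regions, and 5 of 13377 genes (0.0374%) differed, all with the larger increase in the dorsal striatum. They were *Nr4a2*, *Sulf1*, *Enpp2*, *Rbm47* and *Ccn2*, each led by 1 KO library there. Of these calls 0 were made by edgeR's quasi-likelihood test (701 genes with an unadjusted p under 0.05) and 1 gene was called by DESeq2. No gene with the larger decrease in the dorsal striatum passed edgeR's test, although 366 had an unadjusted p under 0.05, and decreases were called when some libraries were left out (9 without heterozygous 6b, 11 without KO 8b) and with the choroid plexus covariate (5). *Arc* differed from the other regions by -0.85 on the log2 scale (edgeR adjusted p = 0.547) and *Egr2* by -2.22. Of the 14 immediate early genes, all 14 had a negative log2 fold change in the ventral striatum, 11 in the hypothalamus and 9 in the motor cortex, with medians of -0.82, -0.70 and -0.47. Counts of calls in those regions were 6 (0.0449%), 28 (0.209%) and 1 (0.00748%). *Arc* also passed in the ventral striatum (log2 fold change -1.26, edgeR adjusted p = 0.0353) and the motor cortex (-1.38, edgeR adjusted p = 0.0190), and *Fos* in the hypothalamus (-2.30, edgeR adjusted p = 0.00473). *Egr3* went the other way in the hypothalamus, where it was higher in KO (log2 fold change 1.90, edgeR adjusted p = 0.00628). *Pla2g4e* also passed in the ventral striatum and the hypothalamus, and *Ide* in the hypothalamus. Libraries of different regions are separate preparations, but the labels do not say whether libraries with the same number came from the same mouse.

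**Figure D5:**
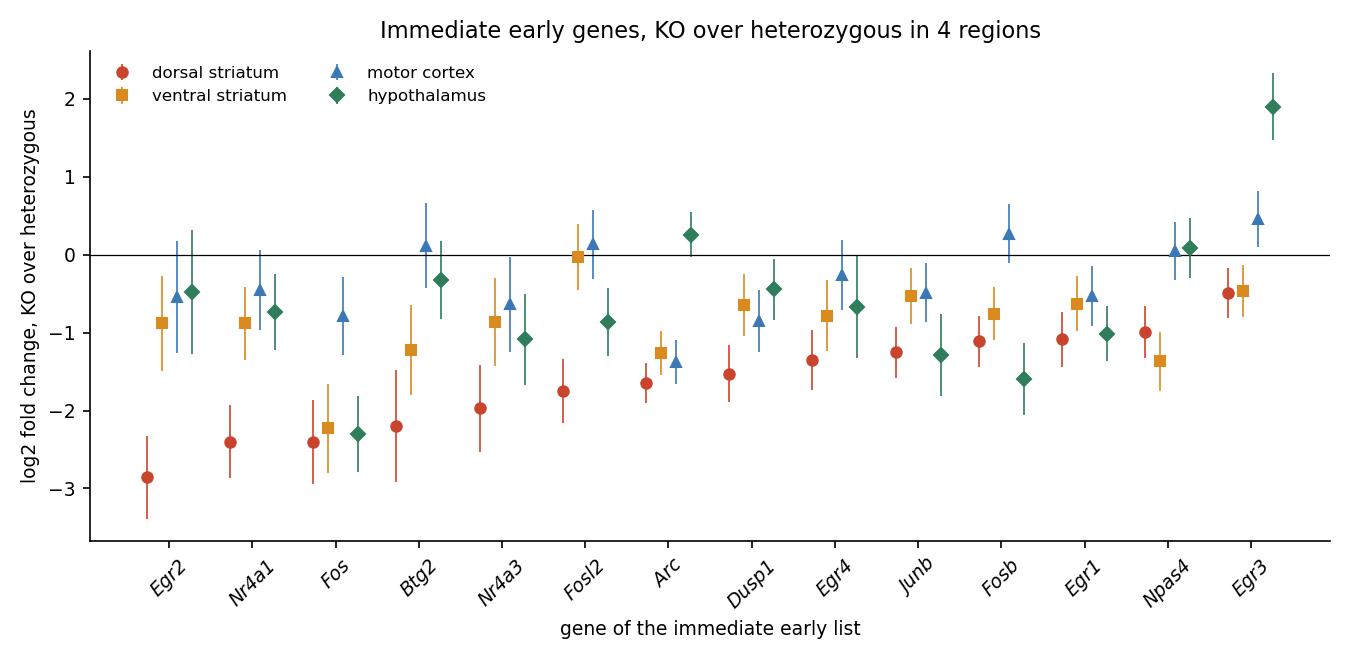
Log2 fold change of KO over heterozygous for the 14 immediate early genes in 4 brain regions, with bars of 1 standard error from the edgeR fit. Dorsal striatum points are below 0 in all 14 genes and are the lowest of the 4 regions for *Egr2*, *Nr4a1*, *Fosl2*, *Btg2*, *Nr4a3* and *Arc* among others, and *Egr3* in the hypothalamus lies well above 0.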

How the data were processed

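The authors deposited 1 file of raw gene counts per library, made by HTSeq from single-end 50 base reads aligned with STAR to GRCm38 with Ensembl annotation 75. Reads had been trimmed with Trimmomatic, and ribosomal RNA reads had been removed with Bowtie2. The submitters' processing notes list HTSeq 0.6.1p1, STAR 2.3.1z8, Bowtie2 2.2.3, Trimmomatic 0.32 and SAMtools 0.1.19. The cDNA kit amplifies total RNA and the counting is not stated to use strand, so overlapping and antisense genes cannot be told apart. Rows that name no gene held 50.73% to 55.22% of tallied reads in the 5 libraries and were left out.

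Counts were tested in R 4.3.3 with edgeR 4.0.16 (glmFit and glmLRT, as in the study's methods) after TMM normalization. The fit held all 28 libraries with 1 mean per group (12 groups, 3 genotypes by 4 regions). Genes were called at a Benjamini-Hochberg adjusted p under 0.05 over 13377 genes. Log2 CPM used a prior count of 2. With 2 libraries against 3, an exact permutation test on a single gene cannot go below p = 0.2, so the adjusted p-values lean on a dispersion estimated over all genes and all groups. The code was tested on simulated data. Alternatives were edgeR's quasi-likelihood test, DESeq2 1.42.0, limma 3.58.1 (voom) with library number as a block, other scalings, filters and sets of libraries, each library left out, and marker-list covariates. Gene symbols and positions came from GENCODE M21, which named 28758 of 29878 genes, and promoters from RefSeq.

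The members, gene lists and tests were chosen with earlier results of these data known. Genes were named by rule: *Hdc*, the 15 called genes with the smallest p in each direction, the 8 largest changes in each direction outside the heterozygous range with a mean of at least 10 CPM, list members, called genes within 10 Mb of *Hdc*, and the 5 genes of the contrast between regions. The remaining called genes, and *Chp1*, were named after their values were seen. A few list members are not reported here. Pairs of libraries within a group differed by a chi-square per degree of freedom of 2.17 to 13.3, more than sampling noise gives, so none was counted as a repeat. Counting error covers the sampling of reads only, since the libraries carry no molecular identifiers.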

Additional observations from a re-analysis of the deposited data

Results flagged for a closer look

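The KO-over-heterozygous difference of 5 genes was larger in the dorsal striatum than in the mean of the ventral striatum, motor cortex and hypothalamus, by edgeR's likelihood ratio test of that difference. *Nr4a2* differed by 5.03 on the log2 scale (standard error 0.94, edgeR adjusted p = 0.00140), and in the dorsal striatum it was at 76.5 CPM in 7b and 2.10 CPM in 8b. *Rbm47* differed by 4.39 (standard error 1.02, edgeR adjusted p = 0.0176), with 1.83 CPM in 7b and 14.97 CPM in 8b. *Ccn2* differed by 3.51 (standard error 0.81, edgeR adjusted p = 0.0176), with 10.1 CPM in 7b and 1.31 CPM in 8b. *Sulf1* differed by 1.88 (standard error 0.37, edgeR adjusted p = 0.00166), with 16.7 CPM in 7b and 34.4 CPM in 8b. *Enpp2* differed by 1.81 (standard error 0.40, edgeR adjusted p = 0.0176), with 167 CPM in 7b and 991 CPM in 8b. With edgeR's quasi-likelihood test 0 genes passed this contrast (701 with an unadjusted p under 0.05) and with DESeq2 1 did. Several cortical list genes were high in 7b and choroid plexus list genes were high in 8b, and their part in these 5 differences was not tested.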

How the results depend on the processing

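Against 62 calls, edgeR's quasi-likelihood test called 8 genes, 7 of them among the 62, and DESeq2 called 19. There were 31 calls when only the 7 dorsal striatum libraries entered the fit and 12 with both the choroid plexus and the cortical list as covariates, an alternative added after the data had been seen. Leaving out single libraries gave 13 to 84 calls: 13 without heterozygous 4b and 15 without 5b. The count outside the heterozygous range was 4179 to 6822 when 1 library was left out, as fewer libraries set the range. In the contrast of the dorsal striatum with the other regions the count of 5 became 0 with the quasi-likelihood test (701 genes with an unadjusted p under 0.05), 1 with DESeq2, 14 with no filter on low counts and 24 with the choroid plexus covariate, and 4 to 49 without single libraries (17 without 6b, 34 without 7b and 49 without 8b). Correlations of deviations from the group means did not settle whether library numbers pair the samples. The 27 same-number pairs had a mean of 0.012 (-0.086 to 0.111) and 42 pairs of other numbers -0.008. Of 19 libraries, 12 correlated best with their own number. Within a KO group the deviations of the libraries mirror each other, so these correlations are not separate values. With the replicate block by library number in limma voom, 1 gene was called, and in the contrast between regions a fixed replicate block gave 6. The cause of these changes was not tested.

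Of the 32 genes led by 1 KO library, 11 changed sign without a KO library. Over the fits with 1 library left out, the log2 fold change ranged from -1.43 to 5.15 for *Slc17a7*, -0.38 to 3.34 for *Cck*, -0.13 to 2.62 for *Nptx1*, -0.041 to 2.90 for *Vxn*, -0.32 to 3.04 for *Nrn1*, -0.20 to 2.13 for *Kcnj6*, -0.97 to 2.37 for *Cbln2*, -1.30 to 4.12 for *Kl*, -1.88 to 3.49 for *Prlr*, -0.46 to 4.57 for *Tmem72* and -0.62 to 3.78 for *F5*. The list medians ranged from -0.092 to 2.59 (cortical) and -0.96 to 3.95 (choroid plexus). With the choroid plexus covariate the values were *Kl* -0.049, *Prlr* -0.44, *Tmem72* -0.17, *F5* -0.30 and -0.24 for the choroid plexus list. With the cortical covariate *Slc17a7* was -0.31 and the cortical list -0.23. With both, *Neurod6* was -0.33, *Tmem72* -0.68, *F5* -0.83, the cortical list -0.16 and the choroid plexus list -0.23. Each covariate was the mean level of the list itself, so the loss of the difference in its members was built in and tests no cause. The signs of the 18 lower genes were kept under all 17 alternatives, and those of 31 of the 44 higher genes. A kept sign is not a kept call: the quasi-likelihood test kept the calls of 4 of the 18 lower genes and DESeq2 of 6. Depth limits genes such as *Apold1*, *Gipc2* and *Tufm*, with few counts per library, and groups of 2 and 3 libraries leave the spread to be shared across the fit.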

Other observations

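*Ide* differed between library numbers of the same genotype across the series. In the order dorsal striatum, ventral striatum, motor cortex, hypothalamus, the libraries of KO number 7 were at 46.7, 56.9, 75.3 and 61.6 CPM and those of KO number 8 at 74.8, 72.2, 94.1 and 92.6 CPM. Number 8 was above number 7 in each of the 4 regions. In the same order, heterozygous libraries spanned 30.5 to 32.8, 34.6 to 37.7, 49.1 to 53.6 and 35.6 to 42.7 CPM, below both KO libraries in each region. WT numbers 1 and 2 were at 29.6 and 35.0 CPM in the dorsal striatum. WT number 3, which has libraries of the ventral striatum and hypothalamus, was at 56.6 and 62.2 CPM there, close to KO number 7.

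*Syt10* and *Gpr139* spread widely among WT libraries of the dorsal striatum, with *Syt10* at 4.49 and 36.1 CPM and *Gpr139* at 29.9 and 7.001 CPM in 1b and 2b. Library 1b was beyond both KO libraries in each gene, on the side away from the heterozygous libraries, and 2b was nearer to the heterozygous libraries.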
